A study of Mus musculus with 8 samples.

Results

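The collagen genes are 40 mouse genes for collagen chains, chosen by symbol alone: an array probe was taken where its RefSeq accession maps to 1 of the 40 symbols. They fall into 11 fibrillar, 9 basement membrane and 20 minor collagens, out of 45483 genes and unnamed features on the array. The 40 genes had 60 probes, and each gene was represented by its brightest one. In 38 genes at least 1 probe was well above background on both arrays of at least 1 group. Col4a3 and Col4a4, chains of the type IV network of specialised basement membranes, were not well above background on any of the 8 arrays and were not tested.

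Collagens are extracellular proteins of 3 chains wound into a triple helix. Fibrillar collagens form the load-bearing fibres of skin, tendon and fat, with type I and III as the bulk of the fibre and type V and XI chains inside it. Type IV chains form the sheet-like network of basement membranes, the type VI chains build beaded microfibrils that surround adipocytes, and the FACIT collagens sit on fibre surfaces. Stromal cells of fat, which include the precursors of adipocytes, are a main source of these chains.

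The cells were adherent stromal cells grown from collagenase-digested abdominal subcutaneous fat of male C57BL/6 mice and passaged a few times, so levels are those of cultured cells and not of the tissue. Mice were 6 weeks old at the start and received control chow (C) or a high-fat diet (HF, 60% fat). Feeding lasted 12 or 24 weeks, which gives the groups C12, HF12, C24 and HF24 with 2 arrays each; the mice fed for 24 weeks were also older. Nothing in the labels states that both arrays of a group had different mice or cultures as their source. Every p-value below therefore reflects array-to-array spread, possibly technical, and no more. RNA was labelled with Cy3 and hybridised to 1 Agilent slide read in 1 scan. The 12-week arrays filled the first row of the slide and the 24-week arrays the second, while chow took columns 1 and 2 and high-fat columns 3 and 4. Slide row therefore cannot be told apart from time, nor slide column from diet.

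Between 57.6% and 67.2% of probes were well above background on an array, with the 12-week arrays at 65.1% or more and the 24-week arrays at 62.4% or less. Correlations over the 29586 tested genes and features, each by 1 probe, were 0.995 to 0.998 within groups and 0.955 to 0.985 between groups. No spot was saturated. Of 10 stromal markers, 9 were on the array and none was below background on both arrays of any group, with a summed level (75th percentile of the array set to 1) of 390 to 489. Single stromal markers differed more than this sum. Nt5e was at log2 levels of 0.19 and -0.05 in C12 and -3.21 and -3.26 in HF12, and Cd34 at 4.72 and 4.48 against 3.14 and 3.25. Dpt went from 3.89 and 4.01 in C12 to 1.26 and 1.29 in HF24, while Vim rose from 7.22 and 7.13 to 7.64 and 7.73. All 12 macrophage markers (Ptprc, Csf1r and others) were measured too, and their sum was 65.7 to 66.8 in C12, 349 to 350 in HF12, 140 to 146 in C24 and 272 to 277 in HF24. In bulk RNA of this kind, fewer cells of a type and less RNA per cell cannot be told apart.

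Levels are log2 of the deposited processed intensity minus the array's 75th percentile; they are compared between arrays for 1 probe and never between genes. Diet was compared at each time and time on each diet with limma across all 29586 genes and features that passed the background filter, with Benjamini-Hochberg adjusted p below 0.05 as the threshold. With high-fat diet at 12 weeks, 4 of 38 collagen genes rose and 8 fell, when 31% of all genes passed (13.6% higher, 17.4% lower). At 24 weeks 2 rose and 10 fell, against 34.1% of all genes (15.1% higher, 19% lower). From 12 to 24 weeks on chow 12 rose and 8 fell, against 46.1% of all genes (23.9% higher, 22.2% lower), and on high-fat diet 8 rose and 11 fell, against 46.8% (22.5% higher, 24.4% lower). Among the 16732 tested genes with a symbol, 15.9% were higher and 18.7% lower with diet at 12 weeks, 19.9% and 12.9% with diet at 24 weeks, 26.0% and 24.1% with time on chow, and 28.0% and 20.4% with time on high-fat diet. The collagen totals lay near the share of all genes, 31.6% at each diet comparison and 52.6% and 50% at the time comparisons; what differed was which collagens moved. A called change of at least 2-fold was seen in 1 collagen with diet at 12 weeks (7.21% of all genes), in 6 with diet at 24 weeks (7.31%), in 6 with time on chow (10.9%) and in 7 with time on high-fat diet (9.49%). The 2 arrays of one group did not overlap those of the other in 32, 27, 30 and 31 of the 38 genes in these 4 comparisons, against 68.4%, 70.8%, 72.5% and 76.7% of all genes, so a lack of overlap alone was common.

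The chains of the main fibre showed no called change. Col1a1 and Col1a2 encode the chains of type I collagen and Col3a1 that of type III. The Col1a1 log2 level was 7.92 and 7.86 in C12, 7.83 and 7.95 in HF12, 7.98 and 7.99 in C24 and 7.97 and 8.01 in HF24. All 8 values lay within 0.18 of each other, and the C12 and HF12 arrays overlapped. The diet difference was 0.00 at 12 weeks (95% interval -0.16 to 0.15) and 0.00 at 24 weeks (-0.16 to 0.16). The Col3a1 log2 level was 7.73 and 7.65 in C12, 7.56 and 7.68 in HF12, 7.71 and 7.70 in C24 and 7.67 and 7.70 in HF24, with diet differences of -0.07 (-0.23 to 0.09) and -0.02 (-0.19 to 0.14). Col1a2 was at 8.66 and 8.74 in C12, 8.76 and 8.77 in HF12, 8.84 and 8.87 in C24 and 8.78 and 8.83 in HF24, and none of its 4 differences was larger than 0.16 or past the threshold. Under quantile normalisation of the processed signal, Col3a1 was lower on chow at 24 than at 12 weeks by -0.16 (limma adjusted p 0.0481), where the main estimate was 0.02. The brightest spots of Col1a2, Col1a1 and Col3a1 read 58.1%, 31.6% and 26.6% of the scanner's saturation value.

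**Figure D1:**
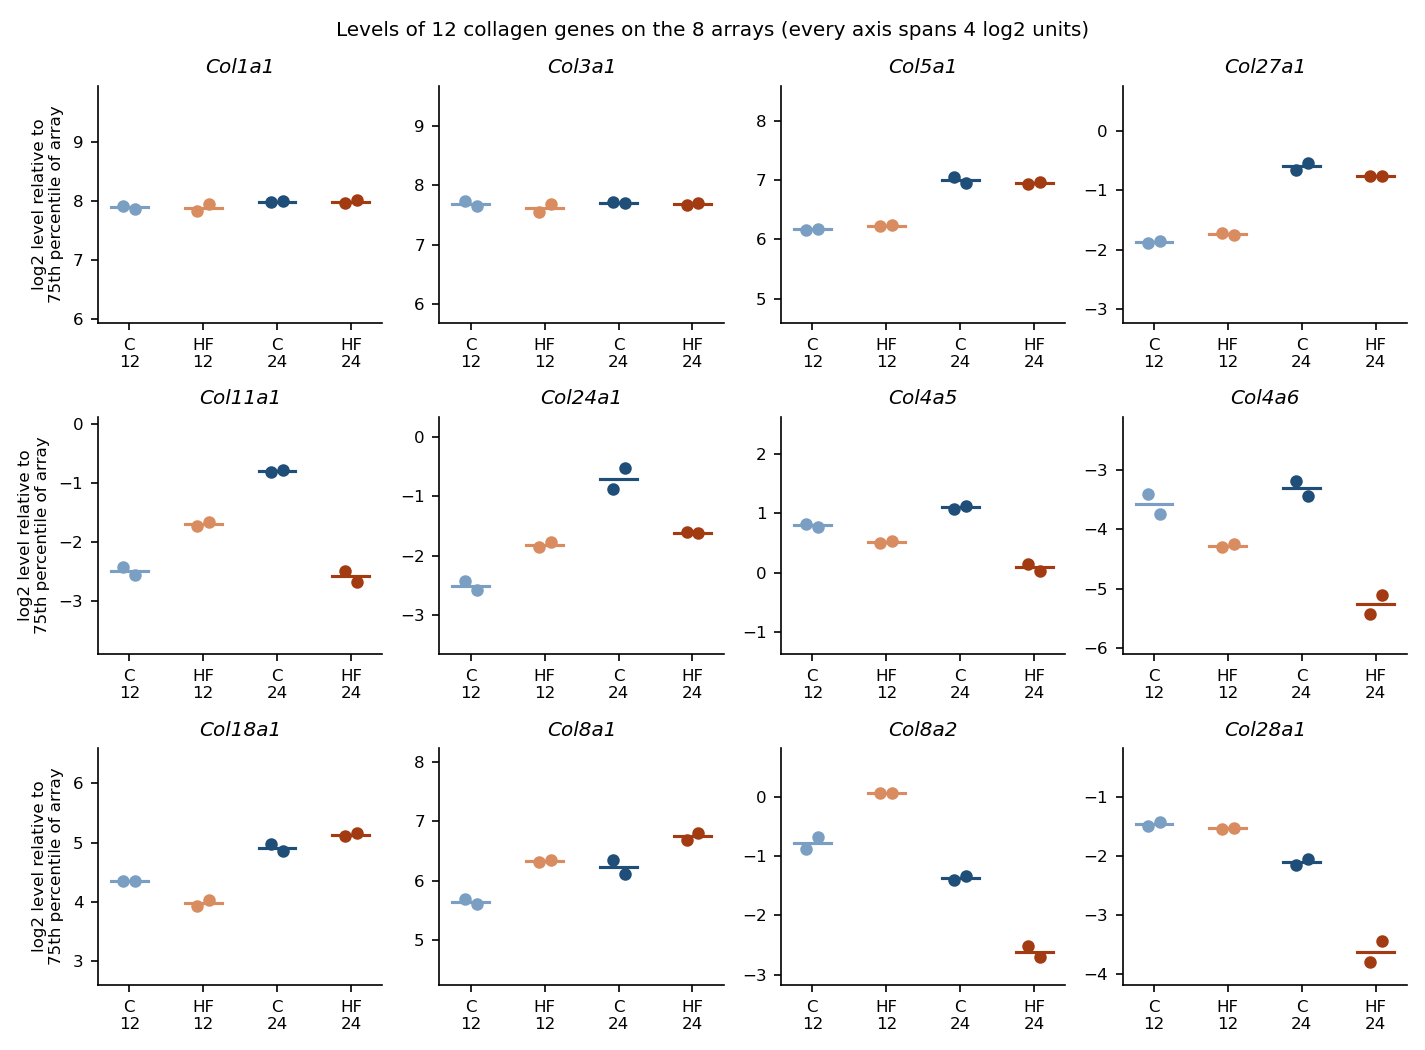
Log2 level relative to the array's 75th percentile (vertical axis, spanning 4 log2 units in each panel) of 12 collagen genes in chow (C) and high-fat (HF) groups at 12 and 24 weeks; points are the 2 arrays of a group and bars their mean. Col1a1 and Col3a1 are flat, Col5a1 and Col27a1 separate by time, and Col11a1, Col24a1 and Col8a2 have high-fat above chow at 12 weeks and below it at 24 weeks.

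The type V and XXVII chains, which sit inside or beside the main fibres, were higher at 24 weeks on both diets. Of the 11 fibrillar genes, 6 rose with time on chow and none fell (median 0.47; all genes 0.02), where 23.9% of all genes rose and 22.2% fell. On high-fat diet 4 rose and 1 fell with time (median 0.10; all genes -0.01), against 22.5% and 24.4% of all genes. In the diet comparison 2 rose and 1 fell at 12 weeks (all genes 13.6% and 17.4%). At 24 weeks none rose and 2 fell (all genes 15.1% and 19%). The falls at 24 weeks numbered 4 under both quantile normalisations and with a variance trend, and 5 with the percentile taken over probes above background on all arrays. Col5a1, which helps set fibre diameter, was at log2 levels of 6.15 and 6.18 in C12, 6.23 and 6.24 in HF12, 7.05 and 6.95 in C24 and 6.94 and 6.97 in HF24. All 4 arrays at 24 weeks were above all 4 at 12 weeks, with a log2 change of 0.83 ± 0.06 (SE; adjusted p 1.63e-04) on chow and 0.72 ± 0.06 (3.57e-04) on high-fat diet. Col5a2 rose by 0.47 ± 0.08 and 0.45 ± 0.08, and Col5a3 by 0.30 ± 0.08 and 0.75 ± 0.08. The Col5a3 rise on chow lost its call without C12 array 1 (0.21, adjusted p 0.0898), C24 array 1 (0.34, 0.0503) or C24 array 2 (0.25, 0.107). Col5a3 also fell with diet at 12 weeks by -0.38 ± 0.08 (0.0144), lost without either HF12 array (-0.40, 0.0592 and -0.36, 0.0762) and not called by its other probe (-0.30, 0.153). Col27a1, a fibrillar chain best known from cartilage, stood at -1.89 and -1.85 in C12, -1.72 and -1.75 in HF12, -0.65 and -0.54 in C24 and -0.75 and -0.76 in HF24. Its change with time was 1.28 ± 0.06 on chow (3.63e-05) and 0.98 ± 0.06 on high-fat diet (1.29e-04). Col2a1, the main chain of cartilage fibres, spanned 0.31 over all 8 arrays with no call. Col11a2 had no call either; its lowest level was -4.96, in C12, and its highest -3.06, in C24 array 1, with the other C24 array at -4.75.

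Col11a1, a type XI chain that nucleates fibres, Col24a1, a fibrillar chain associated with bone, and Col8a2, a short-chain collagen of vascular and corneal matrix, rose with high-fat diet at 12 weeks and fell with it at 24 weeks. Among all genes 1.51% had this pair of calls. The Col11a1 log2 level was -2.42 and -2.55 in C12, -1.73 and -1.66 in HF12, -0.82 and -0.78 in C24 and -2.49 and -2.67 in HF24. C24 stood highest, and the HF24 and C12 arrays overlapped. The diet change was 0.79 ± 0.09 at 12 weeks (limma adjusted p 0.00129) and -1.78 ± 0.09 at 24 weeks (1.26e-04), and the difference between them was -2.57 ± 0.12 (9.50e-05). Col24a1 was at -2.43 and -2.58 in C12, -1.86 and -1.77 in HF12, -0.87 and -0.52 in C24 and -1.61 and -1.62 in HF24. Here too C24 was highest, with diet changes of 0.69 ± 0.12 (0.00891) and -0.92 ± 0.12 (0.0029) and a difference of -1.61 ± 0.18 (0.00161). Without HF12 array 2 the 12-week change was 0.65 and missed the threshold (0.0551). Col8a2 was at -0.87 and -0.68 in C12, 0.06 and 0.06 in HF12, -1.40 and -1.35 in C24 and -2.52 and -2.71 in HF24. In this gene HF12 was highest and HF24 lowest, with diet changes of 0.84 ± 0.09 (0.00142) and -1.24 ± 0.09 (4.05e-04) and a difference of -2.08 ± 0.13 (2.39e-04).

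The promoters of these 3 genes are shown because the genes share a reversal of the diet difference. Each sequence is the 250 bases before the annotated transcription start in RefSeq (build GRCm38.p6, plus strand, 5′ to 3′), with matches to 4 motifs, searched on both strands, in capitals. These were TATAAA of the TATA box, CCAAT of the CCAAT box, then GGGCGG of the GC box and TGANTCA of the AP-1 site.
Col11a1 (chr3:114030290-114030539): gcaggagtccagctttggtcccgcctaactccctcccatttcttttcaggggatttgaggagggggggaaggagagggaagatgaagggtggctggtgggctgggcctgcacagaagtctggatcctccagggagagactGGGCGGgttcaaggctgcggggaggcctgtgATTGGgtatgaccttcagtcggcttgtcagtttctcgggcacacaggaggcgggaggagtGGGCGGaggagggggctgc
Col24a1 (chr3:145292222-145292471): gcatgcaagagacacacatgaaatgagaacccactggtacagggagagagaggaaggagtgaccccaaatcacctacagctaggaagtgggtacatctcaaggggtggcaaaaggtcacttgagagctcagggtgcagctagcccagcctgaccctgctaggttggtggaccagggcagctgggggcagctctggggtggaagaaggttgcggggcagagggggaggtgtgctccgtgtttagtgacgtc
Col8a2 (chr4:126286544-126286793): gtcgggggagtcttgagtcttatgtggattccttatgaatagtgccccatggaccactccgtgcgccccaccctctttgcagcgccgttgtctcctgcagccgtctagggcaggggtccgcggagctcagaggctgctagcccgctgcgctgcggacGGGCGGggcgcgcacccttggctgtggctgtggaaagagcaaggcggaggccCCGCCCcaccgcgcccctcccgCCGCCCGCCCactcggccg
Col11a1 held GGGCGG from positions -110 and -19 (the base before the transcription start is -1) and the reverse of CCAAT from -79. Col8a2 held GGGCGG or its reverse from -93, -41, -19 and -15, the last 2 overlapping. Col24a1 held none of the 4 motifs in this window. No motif was shared by all 3 genes. Over 27025 mouse promoter windows of this length, GGGCGG was present in 32.9%, CCAAT in 34.5%, TATAAA in 13.0% and TGANTCA in 6.9%. Of the 32 collagen genes with a window, 18 (56.2%) held GGGCGG, 11 CCAAT, 5 TATAAA and 1 TGANTCA, and their median GC content was 60.0% against 52.0% over all windows. A match describes letters and not binding.

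The basement membrane collagens were lower with high-fat diet at 12 weeks. Of 7 tested chains 6 fell (Col4a1, Col4a2, Col4a5, Col4a6, Col7a1 and Col18a1) and none rose, with a median of -0.37 against -0.03 over all genes. Of all genes 17.4% were called lower and 13.6% higher in this comparison. Col4a1 and Col4a2, neighbours that lie head to head in the genome and form the common type IV network, were at log2 levels of 5.54 and 5.73 and of 5.17 and 5.41 in C12. In HF12 they were at 5.22 and 5.13 and at 4.95 and 4.86, all below the C12 arrays. The changes were -0.46 ± 0.10 (adjusted p 0.016) and -0.39 ± 0.11 (0.0427). At 24 weeks Col4a1 was at 5.50 and 5.64 on chow and 5.33 and 5.21 on high-fat diet, and Col4a2 at 5.06 and 5.26 against 4.96 and 4.88. These differences of -0.30 ± 0.10 and -0.24 ± 0.11 did not pass.

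The 12-week calls rested on few arrays. The change of all 7 chains stayed below 0 under every alternative that tested them, but the 6 calls became 0 without HF12 array 1, 1 without HF12 array 2 and 3 without either C12 array. With only C12 and HF12 in the fit there were 3 calls, and with no background filter 2. At 24 weeks 1 of the 7 rose and 3 fell (median -0.30; all genes 0.02), where 15.1% of all genes rose and 19% fell. With time 2 rose and 1 fell on chow (all genes 23.9% and 22.2%), and 1 rose and 2 fell on high-fat diet (22.5% and 24.4%). The macrophage marker sum was 65.7 to 66.8 in C12 and 349 to 350 in HF12. The mature adipocyte sum (Adipoq, Plin1 and others) was 982 to 993 and 138 to 143. Of that list Lep was higher in HF12 (-1.71 and -1.51 in C12, -1.31 and -1.38 in HF12), and the rest was lower. The endothelial sum (Pecam1, Cdh5 and others) was 36.0 to 37.6 and 28.6 to 29.7. Not every endothelial marker followed that sum. Vwf was higher in HF12 (0.51 and 0.68 in C12, 1.56 and 1.54 in HF12). Pecam1 (-1.48 and -1.37, -1.44 and -1.40) and Tie1 (-1.55 and -1.29, -1.32 and -1.50) overlapped, and the rest of the list was lower. The part of these lists in the basement membrane result was not tested.

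Col4a5 and Col4a6, also head-to-head neighbours, which together form the network of smooth muscle and some epithelial basement membranes, fell with high-fat diet at both times, as did Col7a1 (6.13% of all genes had this pair of calls). The Col4a5 log2 level was 0.83 and 0.77 in C12, 0.50 and 0.53 in HF12, 1.08 and 1.12 in C24 and 0.14 and 0.04 in HF24. Both high-fat groups lay below both chow groups, with HF24 lowest. The change was -0.28 ± 0.06 at 12 weeks (adjusted p 0.0188) and -1.01 ± 0.06 at 24 weeks (2.22e-04), a difference of -0.73 ± 0.09 (0.00231). The 12-week call was lost without C12 array 1 (-0.26, 0.0831) or either HF12 array (-0.27, 0.0929 and -0.30, 0.0696), and it rested on 1 probe: the other gave -0.03 (0.897) and the mean of both -0.16 (0.275). At 24 weeks the other probe was called too (-1.10, 0.00236). Col4a6 was at -3.40 and -3.74 in C12, -4.30 and -4.25 in HF12, -3.18 and -3.43 in C24 and -5.43 and -5.10 in HF24. In HF24 its probe was not well above background on either array, so its level there is an upper bound. The 24-week level was at least 2.90-fold lower with high-fat diet (fitted change -1.96 ± 0.16, 5.46e-04), the bound being taken against the dimmest signal well above background. From 12 to 24 weeks on high-fat diet it was at least 1.48-fold lower (fitted change -0.99 ± 0.16, 0.00459), a call lost under normexp with quantile normalisation (-0.26, 0.0556). The 12-week change of -0.70 ± 0.16 (0.0226) was lost without C12 array 1 (-0.53, 0.105) or either HF12 array (-0.68, 0.104 and -0.73, 0.0858). Of 7 tested keratinocyte and epithelial markers (Perp, Krt5 and others), 1 rose and 5 fell with diet at 24 weeks, all 5 by at least 2-fold (median -3.03). With time on chow 6 rose and 1 fell (median 3.62). Over all genes 15.1% were higher and 19% lower with diet at 24 weeks, and 23.9% and 22.2% with time on chow. Dsp was well above background on 2 arrays only, at -3.56 and -3.24 in C24 against -7.94 to -6.92 elsewhere. It entered the test only through the group where it is high, so it adds no separate weight to these counts. The part of these markers in the 24-week change of Col4a5 and Col4a6 was not tested.

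The collagens that anchor or flank basement membranes differed among themselves. Col7a1, the anchoring fibril chain of the skin, was lower by -0.28 ± 0.07 at 12 weeks (0.0326) and -0.31 ± 0.07 at 24 weeks (0.0204). Its 12-week call was lost when any 1 of 6 arrays was left out (-0.33 to -0.23, adjusted p 0.0576 to 0.153), and its 24-week call without C24 array 1 or either HF24 array (-0.34 to -0.24, 0.0626 to 0.102). Col18a1, the source of endostatin, was at log2 levels of 4.36 and 4.35 in C12, 3.94 and 4.03 in HF12, 4.98 and 4.86 in C24 and 5.11 and 5.16 in HF24. It was higher at 24 weeks on both diets, by 0.56 ± 0.07 (0.00117) on chow and 1.16 ± 0.07 (1.01e-04) on high-fat diet. Its diet change was -0.37 ± 0.07 at 12 weeks (0.00908), lost without HF12 array 1 (-0.33, 0.0577). At 24 weeks it was 0.22 ± 0.07 (0.0494), a call that did not hold when any 1 of the 8 arrays was left out (0.16 to 0.28, 0.0614 to 0.194). Among all genes 2.48% were called lower at 12 and higher at 24 weeks. The difference between the diet changes, 0.59 ± 0.09 (0.00627), kept its call under every alternative run. Col15a1, found beside vessels and muscle, fell with time on chow by -0.40 ± 0.08 (0.00825) and had no other call by its brighter probe; its other probe was called lower with diet at 12 weeks (-0.40, 0.00984).

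**Figure D2:**
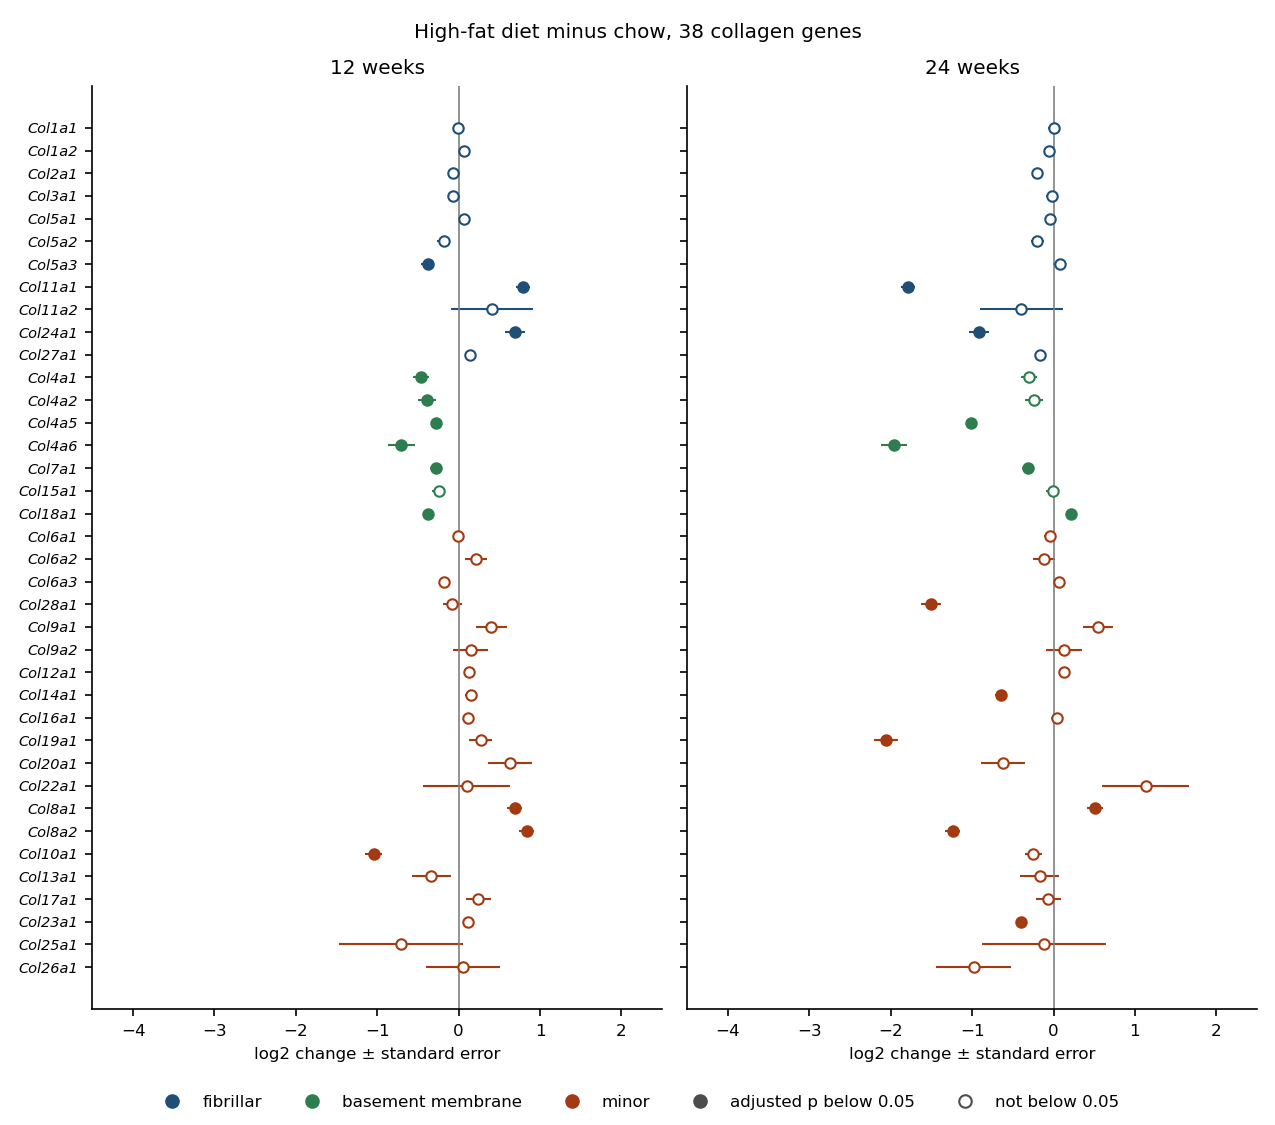
Log2 change with high-fat diet (horizontal axis) at 12 weeks (left) and 24 weeks (right) for the 38 tested collagen genes, coloured by class; points are estimates from 2 arrays a group, bars the standard error, and filled points have an adjusted p below 0.05. All 7 basement membrane chains lie left of 0 at 12 weeks, and Col11a1, Col24a1 and Col8a2 change sides between the panels.

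Of the 20 minor collagens, 2 rose and 1 fell with high-fat diet at 12 weeks, and 1 rose and 5 fell with it at 24 weeks. The shares of all genes were 13.6% higher and 17.4% lower, and 15.1% and 19%. With time 4 of the 20 rose and 7 fell on chow (all genes 23.9% and 22.2%), and 3 rose and 8 fell on high-fat diet (22.5% and 24.4%). The type VI chains had no diet call and were in part higher with time. Col6a1 was at log2 levels of 6.77 and 6.86 in C12, 6.80 and 6.81 in HF12, 6.92 and 7.05 in C24 and 6.93 and 6.96 in HF24, with no call. Col6a2, its neighbour on the same strand, was at 3.59 and 3.96 in C12, 4.06 and 3.91 in HF12, 4.18 and 4.37 in C24 and 4.16 and 4.15 in HF24. It rose by 0.50 ± 0.14 on chow (0.0282), a call lost without C12 array 1 (0.31, 0.0944) or C24 array 2 (0.40, 0.125). Col6a3, the chain that releases endotrophin in fat, was at 6.05 and 6.15 in C12, 5.90 and 5.95 in HF12, 6.72 and 6.80 in C24 and 6.84 and 6.82 in HF24. It separated the times completely, with changes of 0.66 ± 0.06 (5.46e-04) on chow and 0.90 ± 0.06 (2.16e-04) on high-fat diet, while its diet differences of -0.18 ± 0.06 and 0.06 ± 0.06 did not pass. Col6a3 at 12 weeks was called lower with high-fat diet under both quantile normalisations.

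Col28a1, a von Willebrand A domain collagen known from peripheral nerve, moved the other way. Its log2 level was -1.50 and -1.42 in C12, -1.55 and -1.52 in HF12, -2.16 and -2.06 in C24 and -3.79 and -3.44 in HF24. HF24 was lowest, with a change of -1.51 ± 0.12 (4.55e-04) with diet at 24 weeks, -0.65 ± 0.12 (0.00619) with time on chow and -2.08 ± 0.12 (9.68e-05) with time on high-fat diet. With its probes averaged the change on chow was -0.62 and not called (0.0959), and its other probe alone gave -0.59 (0.284). All 7 tested Schwann and glial markers (Sox10, S100b and others) were also called lower with high-fat diet at 24 weeks, and their sum was 12.5 to 14.0 in C12, 12.6 to 12.8 in HF12, 18.5 to 19.1 in C24 and 4.39 to 4.43 in HF24. Erbb3, of the same list, was below background on all arrays. The part of these cells in the Col28a1 result was not tested.

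Diet differences of the 8 FACIT chains at 12 weeks lay between 0.10 and 0.64 and gave no call. Col12a1 and Col14a1 coat type I fibres. Col12a1 spanned 0.24 over all 8 arrays with no call, whereas Col14a1 fell with high-fat diet at 24 weeks by -0.64 ± 0.07 (0.00169), from -0.25 and -0.26 in C24 to -0.91 and -0.89 in HF24. Col16a1 rose with time by 0.32 ± 0.06 on chow (0.00814) and by 0.23 ± 0.06 on high-fat diet (0.0251), the latter lost without any 1 of the 4 high-fat arrays (0.19 to 0.27, 0.0551 to 0.138), by its other probe (0.25, 0.153) and under quantile normalisation (0.06, 0.49) or normexp with quantile normalisation (0.09, 0.318). Col19a1, first described in muscle cell lines, fell with time on both diets. Its log2 level was -3.79 and -3.80 in C12, -3.51 and -3.53 in HF12, -4.78 and -5.21 in C24 and -6.98 and -7.13 in HF24, with 1 C24 array and neither HF24 array well above background. It was at least 2.49-fold lower in HF24 than in HF12 (fitted change -3.54 ± 0.14, 2.88e-05; -0.97 under normexp with quantile normalisation) and lower in C24 than in C12 by -1.20 ± 0.14 (0.00117; -0.42 under normexp). Between the diets at 24 weeks the fitted change was -2.06 ± 0.14 (3.13e-04; -0.40 under normexp), and no bound can be given because C24 was itself near background. The muscle marker sum (Tnnc2, Des and others) was 201 to 210 in C12, 151 to 157 in HF12, 84.9 to 85.8 in C24 and 27.1 to 27.3 in HF24. Between C12 and HF12 Myod1 (-0.12 and 0.07, -0.00 and -0.14) and Myog (3.23 and 3.28, 3.28 and 3.23) overlapped. Myf5 was below background on all arrays, and the rest of the list was lower in HF12. The part of this list in the Col19a1 result was not tested.

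The other FACIT chains were dim. Col20a1 fell on high-fat diet with time by -0.94 ± 0.27 (0.0322), with HF12 array 2 at -2.73 and the remaining arrays between -4.22 and -3.46. The call was lost without any 1 of the arrays of C12, C24 or HF24 (-1.05 to -0.82, 0.0505 to 0.115), and under quantile normalisation (-0.79, 0.0591) or normexp (-0.39, 0.0762). Without HF12 array 2 it was -0.50 (0.0314). Col22a1, of muscle-tendon junctions, had no call; HF24 array 1 read -2.58 and the other 7 arrays -4.81 to -4.40. Col9a1 and Col9a2, partners of type II collagen in cartilage, spanned 1.24 and 0.78 with no call.

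Of the short-chain collagens, Col8a1 was the only gene of the 38 called higher with high-fat diet at both times, a pattern of 5.03% of all genes. Its log2 level was 5.69 and 5.60 in C12, 6.31 and 6.35 in HF12, 6.35 and 6.12 in C24 and 6.69 and 6.80 in HF24. The diet change was 0.69 ± 0.10 at 12 weeks (0.00332) and 0.51 ± 0.10 at 24 weeks (0.00952), and the difference between them, -0.18 ± 0.14, did not pass. With only C24 and HF24 in the fit the 24-week change missed the threshold (0.0508). Col8a1 also rose with time on chow by 0.59 ± 0.10 (0.00382) and on high-fat diet by 0.42 ± 0.10 (0.0148), the latter lost without either HF12 array (0.40, 0.0736 and 0.44, 0.0565) or HF24 array 2 (0.36, 0.0717). Its partner chain Col8a2 fell with time on both diets, by -0.59 ± 0.09 (0.00355) and -2.67 ± 0.09 (1.86e-05). The macrophage and the pericyte and smooth muscle sums were also higher with high-fat diet at both times, the latter at 324 to 355 in C12, 426 to 428 in HF12, 483 to 498 in C24 and 679 to 694 in HF24. Single markers did not all follow these sums. At 12 weeks Acta2, Tagln, Cnn1 and Rgs5 were higher with high-fat diet, Cspg4 overlapped and Myh11 hardly moved. Mcam, Notch3, Kcnj8 (-0.21 and -0.35 in C12, -1.17 and -1.14 in HF12) and Abcc9 (0.69 and 0.59, -0.41 and -0.39) were lower. At 24 weeks Myh11 was lower, as were Mrc1 and Itgam of the macrophage list. The part of these lists in the Col8a1 result was not tested. Col10a1, the collagen of hypertrophic cartilage, was at -3.64 and -3.78 in C12, -4.81 and -4.70 in HF12, -4.26 and -4.40 in C24 and -4.69 and -4.46 in HF24, with 7 of 8 arrays well above background. C12 was highest, and the gene was lower with high-fat diet at 12 weeks by -1.04 ± 0.11 (9.69e-04; -0.40 under normexp with quantile normalisation, still called) and with time on chow by -0.62 ± 0.11 (0.00497; -0.27 under normexp with quantile normalisation).

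The remaining minor chains that were called fell with time. Col23a1, a transmembrane collagen, was at log2 levels of -2.37 and -2.44 in C12, -2.23 and -2.34 in HF12, -3.10 and -3.16 in C24 and -3.52 and -3.53 in HF24. Its changes with time were -0.73 ± 0.07 (4.34e-04) on chow and -1.24 ± 0.07 (7.63e-05) on high-fat diet, and with diet at 24 weeks -0.39 ± 0.07 (0.0065), a call lost under normexp with quantile normalisation (-0.13, 0.138) and not made by its other probe (-0.16, 0.341), which was well above background on all 8 arrays. Col25a1, a transmembrane collagen of neurons and muscle, was at -2.17 and -2.28 in C12, -2.95 and -2.92 in HF12, -5.88 and -5.59 in C24 and -4.56 and -7.15 in HF24. Neither C24 array and only 1 HF24 array was well above background, and the HF24 arrays lay on both sides of C24. The level was at least 7.20-fold lower in C24 than in C12 (fitted change -3.51 ± 0.76, 0.0118), a call lost without C12 array 1 (-3.46, 0.0588), C12 array 2 (-3.57, 0.0516) or C24 array 1 (-3.37, 0.0514). On high-fat diet the change was -2.92 ± 0.76 (0.0234), lost without either HF12 array (-2.93, 0.0912 and -2.91, 0.0903). It was -4.22 without HF24 array 1, -1.62 without HF24 array 2 and -1.13 under normexp with quantile normalisation, each called. Col13a1, a transmembrane collagen of neuromuscular junctions, and Col17a1, the hemidesmosome collagen of epithelia, spanned 0.88 and 0.56 over the arrays with no call.

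**Figure D3:**
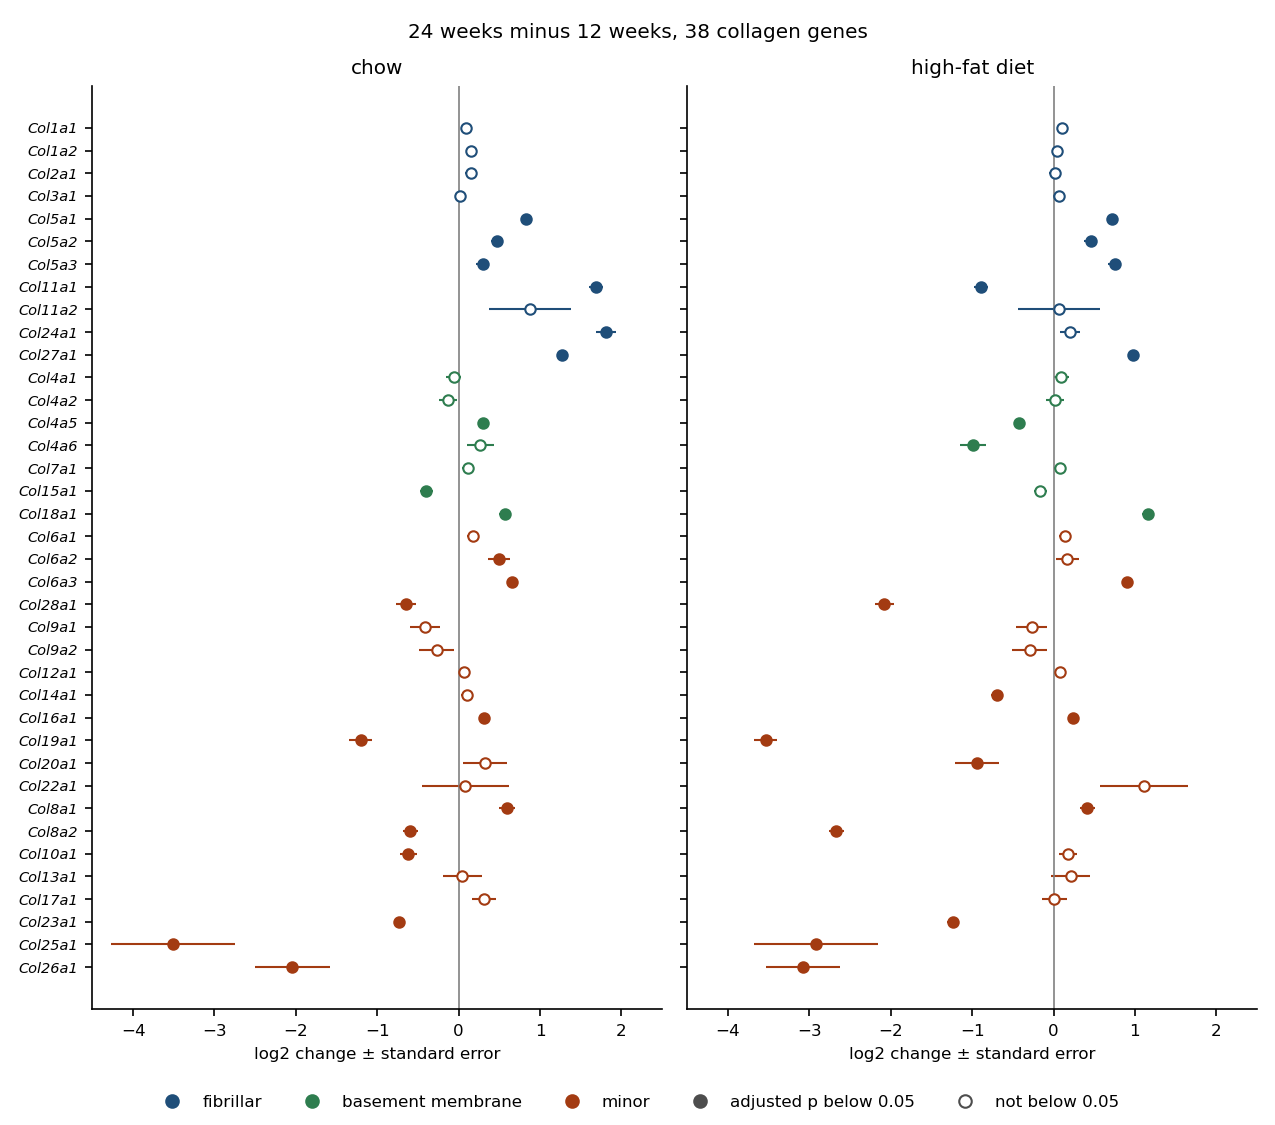
Log2 change from 12 to 24 weeks (horizontal axis) on chow (left) and on high-fat diet (right) for the 38 tested collagen genes, with colours, bars and fill as for the diet changes. Fibrillar chains lie mostly right of 0, Col11a1 changes sides between the diets, and Col25a1 on chow and Col19a1 on high-fat diet lie far left, against groups in which their probes were not well above background.

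For 8 genes at least 1 call depended on the probe. For Col4a5, Col5a3, Col15a1, Col16a1, Col23a1 and Col28a1 these calls are given above, and Col26a1 and Col17a1 follow here. Col26a1, a secreted collagen of testis and ovary, was at -1.71 and -1.65 in C12, -1.61 and -1.65 in HF12, -3.74 and -3.71 in C24 and -5.49 and -3.93 in HF24 by its brighter probe. That probe gave -2.04 ± 0.46 (0.0133) on chow, lost without any 1 of the C12 or C24 arrays (-2.08 to -2.01, 0.0511 to 0.0611), and -3.08 ± 0.46 (0.00316) on high-fat diet. The other probe, well above background on all 8 arrays, gave 0.014 and -0.09, with neither called. Col17a1 had the reverse case: its brighter probe, between -3.37 and -2.81 on all arrays, had no call, while the other was at -3.74 and -4.04 in C24, well above background only there, and between -7.66 and -6.10 elsewhere. The keratinocyte markers described beside Col4a6 were also higher in C24, and their part in this probe's level was not tested. Of the 15 genes with more than 1 kept probe, none had opposite calls from its probes. For Col11a1 the other probe was dim, well above background on only 3 of 8 arrays, and highest in C24 (-5.07 and -4.92). Its entry to the test rested on those few arrays, so it adds no separate weight to the pattern of the brighter probe.

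**Figure D4:**
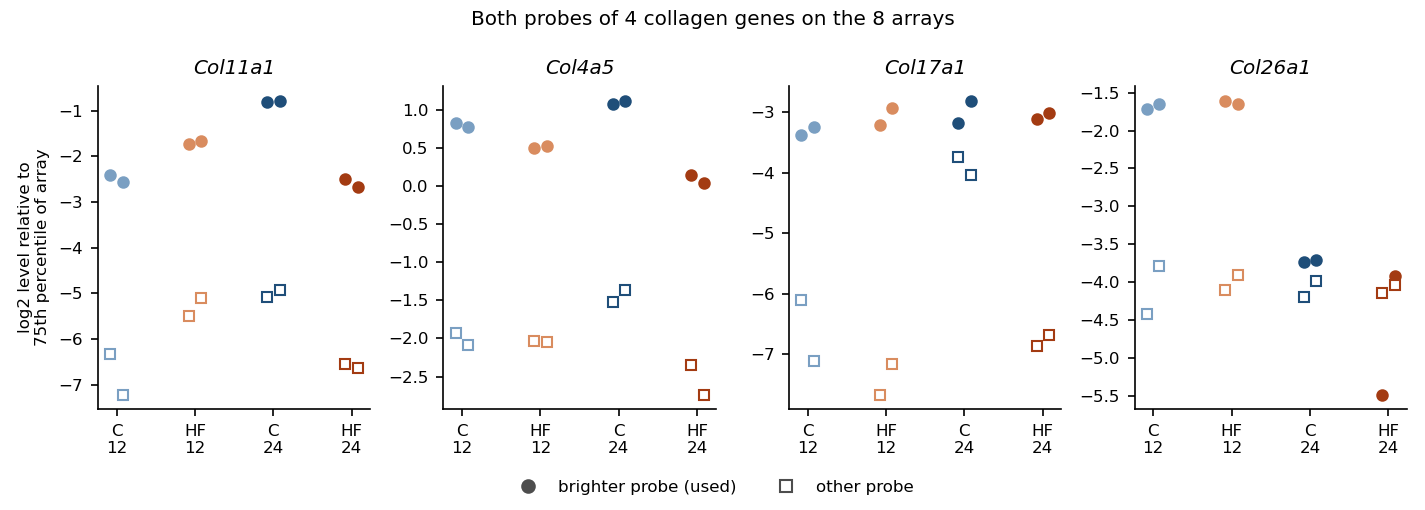
Log2 level relative to the array's 75th percentile (vertical axis) of both probes of Col11a1, Col4a5, Col17a1 and Col26a1 on the 2 arrays of each chow (C) and high-fat (HF) group; filled circles are the brighter probe used in the tests and open squares the other. Both probes of Col11a1 are highest in C24, and those of Col26a1 lie far apart at 12 weeks and, but for 1 HF24 array, close at 24 weeks.

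Across both diet comparisons, which share no arrays, the diet change differed between 12 and 24 weeks in 13 of 38 collagens, 3 upward and 10 downward, against 29.9% of all genes (13.9% upward, 16% downward). In 6 the difference was at least 2-fold (10.3% of all genes). With time, 8 genes were called higher on both diets (Col5a1, Col5a2, Col5a3, Col27a1, Col18a1, Col6a3, Col16a1 and Col8a1; 12.6% of all genes had this pair of calls). Another 6 were called lower on both (Col28a1, Col19a1, Col8a2, Col23a1, Col25a1 and Col26a1, a pattern of 10.8% of all genes). Col19a1 and Col25a1 passed the background filter only through C12 and HF12, the groups in which they are high. Entry to the test thus favoured a fall with time in these genes, and their calls add no separate weight to such a fall. Col11a1 and Col4a5 rose on chow and fell on high-fat diet (3.97%), Col11a1 by 1.69 ± 0.09 and -0.89 ± 0.09 and Col4a5 by 0.30 ± 0.06 and -0.43 ± 0.06. None had the opposite pair (1.67%). The Col4a5 rise lost its call without C24 array 2 (0.28, adjusted p 0.0516). In 12 of the 38 no comparison gave a call, when 29.9% of all genes had none.

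Of 23 tested genes that process and fold collagen chains, 11 rose and 2 fell with time on chow (median 0.21; all genes 0.02), and 12 rose and none fell on high-fat diet (median 0.25; all genes -0.01). The shares of all genes were 23.9% higher and 22.2% lower on chow, and 22.5% and 24.4% on high-fat diet. Tll1 and Bmp1, which cleave procollagen ends, rose by 1.42 ± 0.08 and 0.31 ± 0.06 on chow and by 1.13 ± 0.08 and 0.42 ± 0.06 on high-fat diet. P4ha2, a prolyl hydroxylase subunit, rose by 0.60 ± 0.06 and 0.61 ± 0.06. Pcolce2, an enhancer of procollagen cleavage, was high in C12 alone, at 4.11 and 4.01 against 2.08 to 2.18 on the other 6 arrays. With high-fat diet 3 of the 23 rose and 6 fell at 12 weeks (all genes 13.6% and 17.4%). At 24 weeks 1 rose and 3 fell (all genes 15.1% and 19%). Colgalt2, 1 of the 23, was well above background on 2 arrays only and highest in C12 (-4.74 and -4.75). Entry through C12 favoured a fall in this gene, so it adds no separate weight to the counts. P4ha3 rose at 12 weeks by 1.27 ± 0.11, and Plod2, a lysyl hydroxylase, fell at both times by -0.38 ± 0.07 and -0.55 ± 0.07. The 12 rises on high-fat diet became 6 without HF24 array 1, and the 12-week Plod2 call was lost without C12 array 1 (-0.34, 0.0556) or HF12 array 2 (-0.32, 0.059).

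Genes that crosslink collagen or regulate fibre assembly moved in both directions. Over all genes, 13.6% were higher and 17.4% lower with diet at 12 weeks, and 15.1% and 19% at 24 weeks. The shares with time were 23.9% and 22.2% on chow, and 22.5% and 24.4% on high-fat diet. With time 7 of the 15 tested genes of this list rose and 5 fell on chow, and 6 rose and 6 fell on high-fat diet. With high-fat diet 2 of the 15 rose and 6 fell at 12 weeks, and 2 rose and 5 fell at 24 weeks. The falls at 24 weeks numbered 3 without C24 array 2 or HF24 array 2. Of the small proteoglycans that coat fibres 3 fell with diet at both times: Lum by -1.92 ± 0.10 and -1.89 ± 0.10, Dcn by -0.79 ± 0.09 and -0.70 ± 0.09, and Ogn by -0.66 ± 0.05 and -1.76 ± 0.05. Another, Fmod, named after its values were seen, rose at 12 weeks by 0.90 ± 0.10 (0.00114), and Bgn, likewise, was at 0.27 ± 0.08 (0.0571) and 0.13 ± 0.08 (0.298). Lum was at 4.94 and 4.81 in C12, 2.89 and 3.03 in HF12, 3.08 and 2.86 in C24 and 1.05 and 1.11 in HF24, so HF12 and C24 overlapped between C12 above and HF24 below. Tnxb, a tenascin that binds fibres, fell by -1.85 ± 0.11 and -0.53 ± 0.11, the latter lost without C24 array 2 (-0.46, 0.0584) or HF24 array 2 (-0.52, 0.0517), and Comp, which is also on the chondrocyte list, rose at 12 weeks by 1.41 ± 0.09. With time Thbs1, a matricellular protein, rose by 1.24 ± 0.06 on chow and 1.28 ± 0.06 on high-fat diet, and Loxl3, a lysyl oxidase, by 1.05 ± 0.07 and 1.33 ± 0.07.

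Among collagen receptors and turnover genes 17 were tested. Over all genes, 13.6% were higher and 17.4% lower with diet at 12 weeks, and 15.1% and 19% at 24 weeks. The shares with time were 23.9% and 22.2% on chow, and 22.5% and 24.4% on high-fat diet. Of the 17 genes, 4 rose and 6 fell with diet at 12 weeks and 1 rose and 4 fell at 24 weeks. With time 5 rose and 5 fell on chow and 5 rose and 3 fell on high-fat diet. The falls with diet at 24 weeks became 1 without C24 array 1 and 2 without HF24 array 1. The collagenase Mmp13 rose with diet by 0.85 ± 0.08 and 0.86 ± 0.08, and the receptor Ddr2 fell by -0.63 ± 0.06 and -0.36 ± 0.06. Ctsk, a collagen-degrading protease, fell with diet at 12 weeks by -0.78 ± 0.07, and the inhibitor Timp3 rose with time on chow by 0.81 ± 0.07. The gelatinase Mmp9 was at -5.02 and -5.57 in C12 and between -3.24 and -1.87 on the other arrays, with 7 of 8 arrays well above background.

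The partners of type IV collagen in the basement membrane also fell with diet. Of 16 genes, 1 rose and 10 fell at 12 weeks (median -0.39; all genes -0.03) and 1 rose and 8 fell at 24 weeks (median -0.24; all genes 0.02). Over all genes, 13.6% were higher and 17.4% lower at 12 weeks, and 15.1% and 19% at 24 weeks. Lamc3 was well above background on 4 arrays (chow -5.16 to -4.07, high-fat -6.45 to -5.91) and Lama3 on 3 (highest in C24, -4.25 and -3.15). Entry of these 2 genes through their brighter arrays favoured a fall with diet, so they add no separate weight to the counts. The 10 falls became 5 without either HF12 array. The nidogens, which link laminin to type IV collagen, fell at both times, Nid2 by -1.13 ± 0.05 and -0.91 ± 0.05 and Nid1 by -0.53 ± 0.06 and -0.36 ± 0.06. Lamb1 fell at 12 weeks by -0.68 ± 0.05. Lama1 rose at 12 weeks by 1.54 ± 0.10 and fell at 24 weeks by -0.78 ± 0.10, with HF12 at 2.35 and 2.36 and C12 at 0.92 and 0.70. With time 6 rose and 2 fell on each diet. The shares of all genes were 23.9% higher and 22.2% lower on chow, and 22.5% and 24.4% on high-fat diet. Among the rises was Pxdn, the enzyme that crosslinks type IV collagen, by 1.22 ± 0.08 on high-fat diet.

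Further marker lists differed between groups. The mature adipocyte sum was 982 to 993 in C12, 138 to 143 in HF12, 49.0 to 49.5 in C24 and 51.9 to 54.1 in HF24. Single members did not all follow it at 24 weeks. Fabp4 was higher with high-fat diet (5.51 and 5.53 in C24, 5.64 and 5.71 in HF24). Lep and Lipe overlapped, and the rest of the list was lower, with 4 of the 10 genes below background on both HF24 arrays. The tendon sum (Scx, Tnmd and others, with Fmod shared with the fibre regulators) was 34.1 to 36.7 and 27.3 to 28.5 at 12 weeks on chow and high-fat diet, and 5.74 to 6.38 and 3.71 to 3.85 at 24 weeks. Thbs4 followed this sum, at 5.04 and 4.90 in C12, 4.54 and 4.62 in HF12, 1.91 and 1.73 in C24 and 0.83 and 0.97 in HF24. Scx and Mkx were also lower in HF12 than in C12. Tnmd (-3.94 and -3.74 in C12, -2.51 and -2.66 in HF12) and Fmod (0.00 and 0.28, 1.05 and 1.05) were higher. The endothelial sum was 61.3 to 64.3 in C24 and 74.1 to 76.9 in HF24. The keratinocyte sum was 9.07 to 9.36 in C12, 13.4 to 13.6 in HF12, 17.3 to 18.0 in C24 and 12.4 to 13.4 in HF24. Its members differed more than the sum: Krt5 was at 0.74 and 0.83 in C24 and between -4.34 and -2.67 elsewhere. Itga6 stayed between 2.10 and 3.17 on all arrays. Krt15 and Cdh1 were below background on all arrays. Matn1, Matn3 and Hapln1 of the chondrocyte list and Ibsp, Dmp1 and Phex of the osteoblast list were likewise below background on all arrays, and the chondrocyte sum stayed between 49.3 and 71.8. Sox5 of the chondrocyte list stayed between 5.59 and 6.11. Sox9 went from 0.24 and 0.08 in C12 to -1.35 and -1.09 in HF24, and Sox6 from -0.79 and -1.03 to -3.50 and -3.30. How far these lists bear on the time and diet changes of the collagens was not tested.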

How the data were processed

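Per the file headers, the deposited array files hold 1-colour Cy3 spots read by Agilent Feature Extraction 11.0.1.1 with a design on build mm9; the processed signal is a background-corrected intensity, already linear, and was used as deposited by the authors. The authors' deposited value table holds log2 values that equal log2 of the processed intensity minus a constant (value minus log2 intensity -9.99 to -9.79 by array) (38346 of 38475 rows matched); it served as an alternative.

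Of 62976 spots, control spots were left out, then flagged outlier spots; 192 probes with no unflagged spot on some array were dropped, which left 56413. Spots of a probe were averaged, log2 was taken and each array's 75th percentile subtracted. The 37650 probes well above background on both arrays of at least 1 group were kept, and 1 probe per gene (the brightest) was used. Accessions were named through RefSeq (GRCm38.p6); 32907 probes (58.3%) had 1 symbol. limma 3.58.1 (R 4.3.3) fitted 1 mean per group over all 8 arrays (4 residual and 1.90 prior degrees of freedom), with Benjamini-Hochberg adjustment over 29586 genes and features, and each comparison has 2 against 2 arrays. The number of arrays limits the precision. 

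All 40 genes are named. Values for every array are given for called genes that changed at least 2-fold and for the main chains of types I, III, IV and VI; of other lists up to 4 called genes by smallest p per comparison were eligible, and some are not reported here. Members and lists were chosen with earlier results of these data known. Tested on simulated data modelled on HF12 against C12 over 29586 genes, the fit called 38% of log2 changes of 0.5, 78% of 1, 90% of 2 and 98% of 3, with 12 false calls among 29386. The simulation changed only 50 genes of each size, whereas 9166 genes were called in the data for this comparison. Benjamini-Hochberg adjustment depends on that share, so these rates do not carry over to the calls above. Replicate numbers did not pair arrays, since deviations of same-numbered arrays correlated between -0.08 and 0.17 and no label states a pairing. Alternatives changed the background correction, normalisation, filter, probe rule, variance trend, fitted samples and replicate block, used the value table, or left out each array.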

Additional observations from a re-analysis of the deposited data

Results flagged for a closer look

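The change with high-fat diet differed between 12 and 24 weeks in 13 collagen genes by a test of the difference itself (24-week minus 12-week diet change, log2, limma adjusted p). It was downward in Col11a1 (-2.57, 9.5e-05), Col19a1 (-2.33, 6.98e-04), Col8a2 (-2.08, 2.39e-04), Col24a1 (-1.61, 0.00161), Col28a1 (-1.43, 0.00205), Col4a6 (-1.26, 0.0103), Col14a1 (-0.80, 0.00327), Col4a5 (-0.73, 0.00231), Col23a1 (-0.52, 0.00986) and Col27a1 (-0.30, 0.0444). It was upward in Col10a1 (0.80, 0.0114), Col18a1 (0.59, 0.00627) and Col5a3 (0.46, 0.0261). Of these, Col19a1 and Col4a6 rest on HF24 arrays that were not well above background. The Col27a1 difference lost its call without any 1 array but C24 array 1 (-0.32 to -0.25, 0.0735 to 0.125), and that of Col5a3 without any 1 of 6 arrays (0.37 to 0.49, 0.0522 to 0.0832). By the other probe the difference was not called for Col5a3 (0.32, 0.278) or Col23a1 (-0.05, 0.84), and for Col23a1 it was lost with probes averaged (-0.28, 0.0847) and under normexp with quantile normalisation (-0.21, 0.0922).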

How the results depend on the processing

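Each of 76 called collagen values was recomputed under up to 18 alternatives. Of 1342 such values 1217 kept direction and call, 124 kept direction and lost the call, and 1 turned; 49 called values held under every alternative that tested them. Under normexp with quantile normalisation 26 called values lay over 1.5 times nearer 0, of which 6 lost the call. The turned value was Col26a1 on chow with time, 0.014 when only probes well above background on all arrays were kept, which leaves the other probe. Of values with no call, 3 were called the opposite way: Col3a1 on chow with time (-0.16 by quantile normalisation), Col25a1 with diet at 24 weeks (1.18 without HF24 array 2, -1.42 without HF24 array 1) and its difference between times (1.89 and -0.71); the cause was not tested. Collagens called lower with diet at 12 weeks numbered 8, and 4 with no background filter and 1 to 8 when 1 array was left out. Those called higher with diet at 24 weeks numbered 2, and 1 under normexp with quantile normalisation, with no filter and with the percentile over probes above background on all arrays (an alternative chosen after seeing the data), 0 with only the compared groups in the fit, and 1 to 3 when 1 array was left out. With probes above background on all arrays, 4 instead of 8 fell on chow with time and 7 instead of 11 on high-fat diet; 32 genes were tested, among them Col26a1 by its other probe (0.014 and -0.09, not called). With the replicate block, calls were 4 higher and 6 lower for diet at 12 weeks, 2 and 10 at 24 weeks, 13 and 8 for time on chow, 8 and 11 on high-fat diet, and 3 and 9 for the difference. Over all genes, 9166 were called for diet at 12 weeks, and 5398 without HF12 array 1. The added percentile changed the share of higher calls from 44.2% to 33.9% for diet at 24 weeks and from 48.0% to 37.5% for time on high-fat diet, and no filter changed it from 51.8% to 67.0% on chow with time and from 48.0% to 65.4% on high-fat diet. Signal near background limits Col4a6, Col9a1, Col10a1, Col13a1, Col19a1, Col25a1 and Col26a1, which were not well above background on all arrays.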
